A study of Mus musculus with 15 samples.

Results

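The genes described here are 10 enzyme genes of the methionine cycle, of homocysteine remethylation by betaine and of taurine synthesis: Mat1a, Mat2a, Gnmt, Ahcy, Bhmt, Bhmt2, Cbs, Cth, Cdo1 and Csad. They were chosen by gene symbol, from a pathway in which earlier results on these arrays had already shown 2 differences. Those were the change of Gnmt under treatment and of Csad in the mutant, and both are given as a description, with no p. Other comparisons of Gnmt or Csad that use the same arrays have a p that is not free of this choice. A probe set, the group of short probes that measures 1 transcript, was assigned to a gene where the array annotation gave that single symbol. Of the 10 genes, 9 had a probe set of their own and all 9 passed the filter on low values, with 11 probe sets in all; Mat2a had none under its symbol and is not analysed here. The whole table held 45101 probe sets and gave 9482 tested genes.

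Methionine adenosyltransferase makes S-adenosylmethionine, the donor for most methylation reactions, and the liver is where most methionine is broken down. Mat1a encodes the enzyme of the adult liver and Mat2a the one of other tissues and of growing cells. Glycine N-methyltransferase (Gnmt) uses up surplus S-adenosylmethionine, and Ahcy hydrolyses the S-adenosylhomocysteine that every methylation leaves behind. The homocysteine so formed either regains a methyl group, from betaine through Bhmt or from folate through methionine synthase, or is passed through Cbs and Cth to cysteine. Cdo1 oxidises cysteine and Csad decarboxylates the product on the way to taurine, which in the mouse liver is joined to bile acids.

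The study asked what gut bacteria and Tlr4, the receptor for bacterial lipopolysaccharide, contribute to liver cancer, and RNA of 15 livers was measured on 1 array each. Untreated wild-type mice (3 arrays) received neither toxin. Treated wild-type mice (4 arrays) received 100 mg/kg of the carcinogen diethylnitrosamine (DEN) at an age of 12 weeks and 0.50 ml/kg of the hepatotoxin carbon tetrachloride (CCl4) at 13 and 15 weeks. Treated mutant mice (4 arrays) received the same doses, as did the antibiotic group (4 wild-type arrays), whose drinking water had held ampicillin, neomycin and metronidazole (1 g/l each) and vancomycin (500 mg/l) for 2 weeks starting at 10 weeks. All mice were 15 weeks old when killed, which in the 3 treated groups was 48 hours after the last CCl4. The wild-type groups were C3H/HeOuJ mice, and the mutant group was of the related strain C3H/HeJ, which carries Tlr4P712H. There was no untreated mutant group, so the effect of strain, of the mutation and of their response to treatment cannot be told apart. The labels do not say whether the arrays of a group came from separate experiments, and each p measures the spread between these arrays only.

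All levels below are on the log2 scale of GCRMA, with the SD over arrays where a mean is given (n = 3 untreated, n = 4 in the other groups). Each difference is the log2 fold change between group means, with its SE, in 1 limma fit of the 15 arrays. A gene was called where its p, adjusted by Benjamini-Hochberg over all 9482 genes, was under 0.05, and a log2 value under 4 was taken as close to background. In bulk liver RNA, fewer cells of a type and less RNA per cell cannot be told apart. The tissue label was borne out by 6 measured hepatocyte markers, among them albumin, whose summed log2 level ran from 16.82 to 17.00 over all arrays. Pericentral hepatocyte markers summed to 15.74 to 15.88 on untreated arrays and to 13.10 to 13.94 on treated ones. In treated wild type 5 of the 5 that were tested were called lower, as were 3 of 6 periportal markers and 26.7% of all genes. Macrophage markers summed to 9.44 to 10.90 on untreated, 12.40 to 12.97 on treated wild-type, 10.13 to 10.59 on mutant and 11.21 to 12.24 on antibiotic arrays. Dividing-cell markers summed to 6.42 to 7.04, 14.18 to 14.46, 12.58 to 12.97 and 12.57 to 14.01 in the same order. Kidney markers, of an organ that also handles betaine and taurine, were under 4 on every array (5 of 5).

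The promoters of Csad and Bhmt are shown because Csad had the largest differences of the set and Bhmt was the gene called lower in the mutant. That of Bhmt2 is shown beside Bhmt because the genes are neighbours, with no annotated gene between them. Each window runs from 250 bases before the annotated start to 50 bases after it, on the minus strand of mouse assembly GRCm38.p6 (RefSeq). Entries of 7 of the 10 genes were searched. Bhmt lies at chr13:93637709-93638008, Bhmt2 at chr13:93674253-93674552, and Csad has starts at chr15:102188994-102189293 and chr15:102205003-102205302. Capitals mark the matches to 7 short motifs on either strand.
Bhmt: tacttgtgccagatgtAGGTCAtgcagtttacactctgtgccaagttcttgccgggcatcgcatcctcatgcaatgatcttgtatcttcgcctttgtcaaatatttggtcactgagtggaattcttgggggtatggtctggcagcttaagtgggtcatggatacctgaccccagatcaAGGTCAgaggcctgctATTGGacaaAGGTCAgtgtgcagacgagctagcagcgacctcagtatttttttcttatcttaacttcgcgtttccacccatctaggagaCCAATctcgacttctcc
Bhmt2: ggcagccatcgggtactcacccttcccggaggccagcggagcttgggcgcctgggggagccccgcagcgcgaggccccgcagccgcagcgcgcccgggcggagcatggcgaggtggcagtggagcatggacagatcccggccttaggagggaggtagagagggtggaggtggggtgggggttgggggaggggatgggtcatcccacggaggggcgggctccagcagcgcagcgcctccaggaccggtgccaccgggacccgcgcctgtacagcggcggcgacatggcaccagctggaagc
Csad, first start: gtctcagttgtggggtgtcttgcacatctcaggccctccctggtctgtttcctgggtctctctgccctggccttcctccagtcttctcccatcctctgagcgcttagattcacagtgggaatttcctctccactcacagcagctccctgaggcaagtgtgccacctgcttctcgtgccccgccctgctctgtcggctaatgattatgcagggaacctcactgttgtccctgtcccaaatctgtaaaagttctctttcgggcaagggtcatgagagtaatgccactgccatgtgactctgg
Csad, second start: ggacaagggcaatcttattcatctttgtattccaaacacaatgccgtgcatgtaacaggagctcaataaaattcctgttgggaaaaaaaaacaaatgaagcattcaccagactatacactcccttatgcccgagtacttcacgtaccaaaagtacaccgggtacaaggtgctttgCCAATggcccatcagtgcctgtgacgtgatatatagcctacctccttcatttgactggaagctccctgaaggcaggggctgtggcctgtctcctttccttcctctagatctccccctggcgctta

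The motifs searched were the TATA box TATAAA, the CCAAT box CCAAT, a single repeat, not the whole, of a nuclear receptor site (AGGTCA), the C/EBP letters TTGCNNCAA, the FOXA letters TGTTTAC, a single arm of an HNF1 site (GTTAAT) and the ATF4 and C/EBP composite TGATGNAA, whose letters can overlap those of C/EBP. Over all 32851 promoters of the table they occurred in 13.6%, 37.4%, 16.3%, 2.08%, 3.65%, 7.10% and 3.97% respectively. The Bhmt window held 3 AGGTCA matches, whose first bases lay at -234, -72 and -47 from the start, and 2 CCAAT matches, at -56 and 34. The Bhmt2 window, with a GC content of 73.7% against 48.0% for Bhmt, held none of the 7 motifs. Of the windows of Csad, 1 held a single CCAAT match at -75 and the other no match. The neighbouring genes thus differ in the letters of their promoters, which says nothing about what binds there.

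In treated against untreated wild type, 6 of the 9 measured genes were called lower (26.7% of all genes were) and 0 higher (35.9% of all genes were). The 6 were Mat1a, Gnmt, Ahcy, Cth, Cdo1 and Csad; Bhmt, Bhmt2 and Cbs were not called. Without Gnmt, whose difference was known when the genes were chosen, 5 of the other 8 were lower, with a median difference of -0.55 against 0.10 over all genes. With each array centred on its median, the median over all genes moved from 0.10 to -0.12 and the same 6 genes were called. In the mutant against treated wild type, 3 genes were called higher (Cbs, Cdo1 and Csad; 13.2% of all genes) and 1 lower (Bhmt; 17.6% of all genes). The difference of Csad was known beforehand, and without it 2 of the other 8 were higher and 1 lower, so nothing about the set is read from these counts. In the antibiotic group against treated wild type 1 was called higher (Cdo1; 4.95% of all genes) and 0 lower (9.01% of all genes). The mutant and antibiotic comparisons share the treated wild-type arrays.

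**Figure D1:**
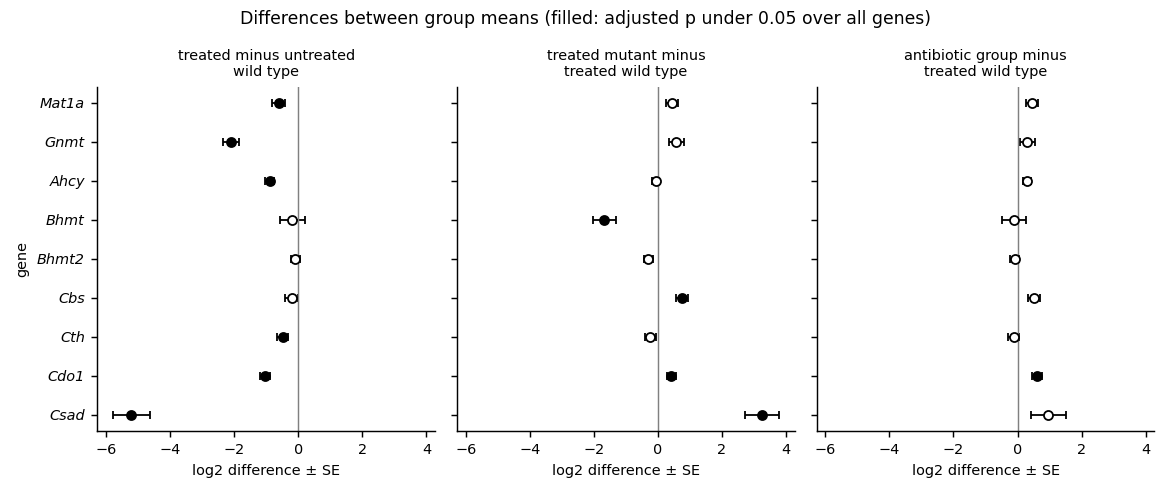
Log2 difference between group means (x axis, bars show the SE) for the 9 measured genes (y axis) in 3 comparisons, with filled points where the adjusted p over all 9482 genes was under 0.05. Treatment left 6 genes lower in wild type, with Csad farthest from 0 at -5.21. In the mutant Csad lay at 3.26 and Bhmt at -1.67 relative to treated wild type. The treatment difference of Gnmt and the mutant difference of Csad were known beforehand, so their filled points are a description and not a test.

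The same groups were also set against each other directly. In the mutant against untreated wild type, 1 gene was called higher (Cbs; 32.6% of all genes) and 7 lower (21.5% of all genes): Gnmt, Ahcy, Bhmt, Bhmt2, Cth, Cdo1 and Csad. In the antibiotic group against untreated wild type, 0 were called higher (34.5% of all genes) and 5 lower (24.3% of all genes): Gnmt, Ahcy, Cth, Cdo1 and Csad. Between the antibiotic group and the mutant, 1 gene was called higher in the antibiotic group (Bhmt; 6.88% of all genes) and 1 lower (Csad; 5.41% of all genes).

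Mat1a, which makes S-adenosylmethionine in hepatocytes, was lower in treated wild type. Untreated arrays read 13.05, 13.28 and 13.37 and treated wild-type arrays 12.86, 12.74, 12.12 and 12.76, without overlap. The log2 difference was -0.61 ± 0.21 (adjusted p = 0.0201), a level 65.5% of the untreated one. The call was lost without treated wild-type replicate 3, the array at 12.12 (-0.44, adjusted p = 0.0612), and without untreated replicate 2 or 3 (adjusted p = 0.0576 and 0.072). Mutant arrays read 13.22, 12.56, 13.16 and 13.31 and antibiotic arrays 13.41, 13.07, 12.78 and 13.03, so that both groups overlapped the untreated and the treated wild-type range. Against treated wild type the mutant difference was 0.44 ± 0.19 (adjusted p = 0.0987) and the antibiotic difference 0.45 ± 0.19 (adjusted p = 0.137), with 95% intervals of 0.03 to 0.86 and 0.04 to 0.87. Without mutant replicate 2, the array at 12.56, the mutant difference was 0.61 with an adjusted p of 0.0257.

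Gnmt, the enzyme that turns glycine into sarcosine and so removes surplus methyl groups, stood lower in all 3 treated groups. Its values were 13.75, 13.98 and 14.05 on untreated arrays and 12.06, 11.41, 11.52 and 12.35 on treated wild-type arrays. The difference of -2.09 ± 0.25 left 23.4% of the untreated level; 198 of the other genes had a lower difference in this comparison. Mutant arrays read 12.91, 12.04, 12.29 and 12.39 and antibiotic arrays 12.27, 12.10, 11.69 and 12.51, all below the lowest untreated array. Against untreated wild type, the fit gave -1.52 ± 0.25 for the mutant (adjusted p = 0.000152) and -1.79 ± 0.25 for the antibiotic group (adjusted p = 3e-05). The order of the means, from untreated over mutant and antibiotic to treated wild type, had no called difference among the 3 treated groups. The mutant exceeded treated wild type by 0.57 ± 0.23 (adjusted p = 0.0737, or 0.03 without treated wild-type replicate 4), with an interval of 0.08 to 1.07.

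Ahcy, which clears S-adenosylhomocysteine in every methylating cell, fell with treatment. Untreated arrays read 13.59, 13.76 and 13.77, and treated wild-type arrays 12.90, 12.68, 12.72 and 12.92. The difference was -0.90 ± 0.13 (adjusted p = 2.56e-05), to 53.7% of the untreated level. Mutant arrays, at 12.64, 12.55, 13.01 and 12.76, covered the treated wild-type range, and the difference between these groups was -0.07 ± 0.12 with an interval of -0.32 to 0.18 (adjusted p = 0.7). Antibiotic arrays, at 13.22, 13.21, 12.88 and 13.12, lay higher in 3 of 4 cases, but the difference of 0.30 ± 0.12 was not called (adjusted p = 0.105). Both groups lay below untreated wild type, with differences of -0.97 ± 0.13 in the mutant (adjusted p = 2.25e-05) and -0.60 ± 0.13 in the antibiotic group (adjusted p = 0.00103).

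**Figure D2:**
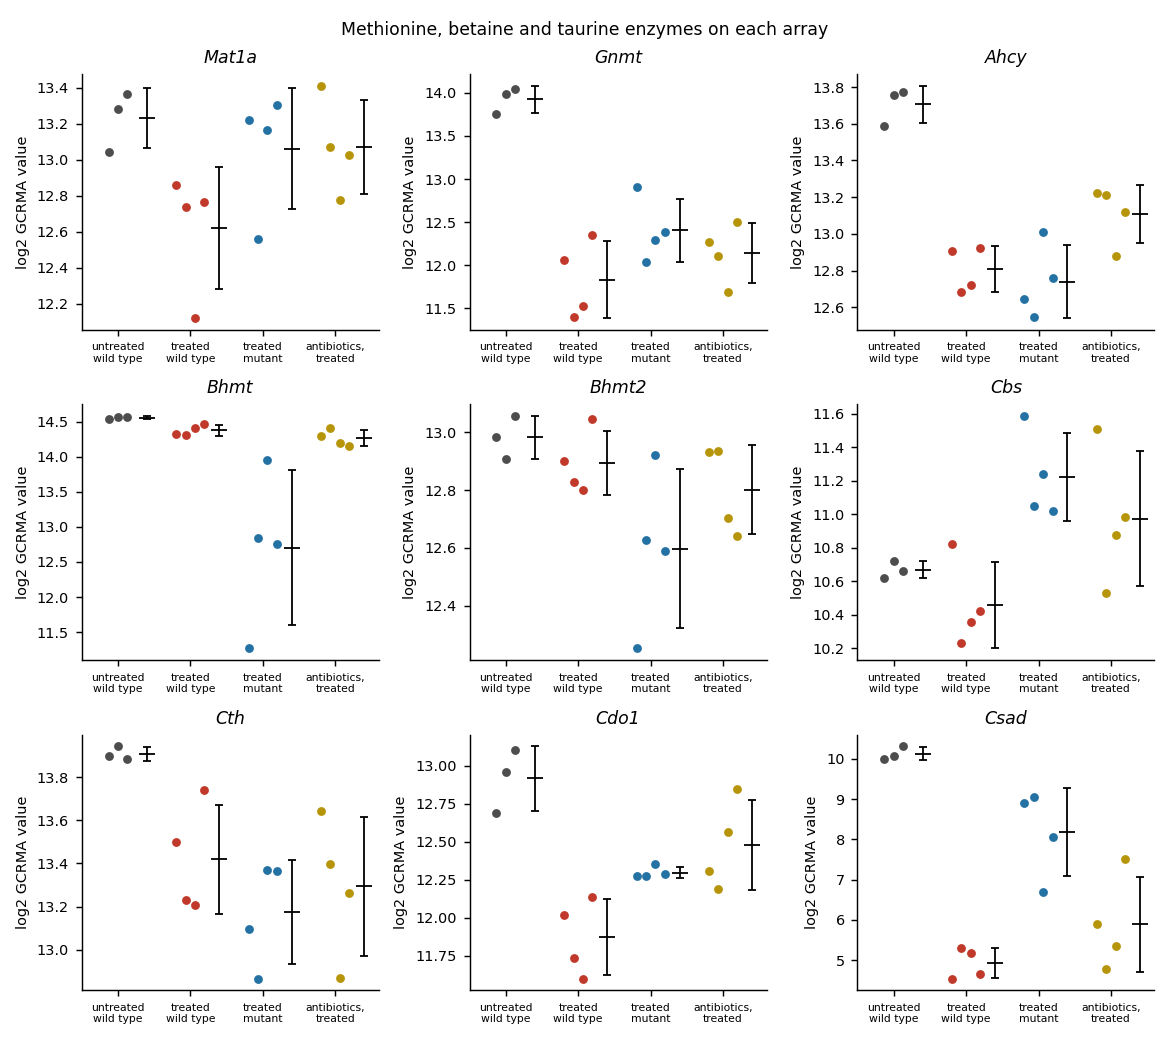
Log2 GCRMA value of each array (points, in replicate order within a group) for the 9 measured genes, with the mean and SD of each group beside them; 3 untreated and 4 arrays in every other group, and a separate y range in each panel that does not start at 0. Csad fell from about 10 to near 5 in treated wild type and lay between in the mutant, whereas Bhmt stayed above 14 in all wild-type groups and ran from 11.27 to 13.95 in the mutant.

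Bhmt, the enzyme that gives the methyl group of betaine to homocysteine, was low in the mutant and above 14 on every wild-type array. Its values were 14.53, 14.57 and 14.57 on untreated arrays, 14.33, 14.30, 14.40 and 14.47 on treated wild-type arrays and 14.30, 14.41, 14.19 and 14.15 on antibiotic arrays. On mutant arrays they were 11.27, 12.84, 13.95 and 12.76, each below every wild-type array. The mutant difference from treated wild type was -1.67 ± 0.37 (adjusted p = 0.0033), to 31.4% of the level, and was between -2.09 and -1.19 with any 1 array left out, with the call kept in each of the 15 cases. A lower difference was found for 309 genes and a higher one for 9172. Relative to untreated wild type the mutant lay at -1.85 ± 0.39 (adjusted p = 0.0012). On wild-type arrays the probe set read above 99.90% to 99.97% of all probe sets, and whether signals that bright are compressed was not tested.

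The mutant arrays also spread widely. Their SD for Bhmt was 1.10, larger than that of 99.4% of all genes in this group, whereas the SDs of 0.02, 0.08 and 0.12 in the untreated, treated and antibiotic wild-type groups were larger than those of 2.6%, 8.8% and 16% of genes. The fit uses 1 spread for all groups, so it is too narrow for the mutant and too wide for the others. Treated wild-type arrays did not overlap untreated ones (a difference of -0.18 ± 0.39, adjusted p = 0.704, interval -1.03 to 0.66), and the antibiotic group differed from treated wild type by -0.11 ± 0.37 (adjusted p = 0.877, interval -0.89 to 0.67). The antibiotic group exceeded the mutant by 1.56 ± 0.37 (adjusted p = 0.0134), a call that was lost when only these 2 groups were fitted (adjusted p = 0.0711).

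Bhmt2, the neighbouring gene, remethylates homocysteine from S-methylmethionine and was measured by 2 probe sets. In 1418914_s_at, the brighter one that stands for the gene, mutant arrays read 12.25, 12.63, 12.92 and 12.59 and treated wild-type arrays 12.90, 12.83, 12.80 and 13.04. The groups overlapped through mutant replicate 3, and the difference of -0.29 ± 0.13 was not called (adjusted p = 0.0986, or 0.0223 without that array). In 1418913_at, mutant arrays read 11.28, 11.53, 11.89 and 11.56 and treated wild-type arrays 11.98, 12.12, 12.01 and 12.14, with no overlap. This probe set was called, at -0.50 ± 0.13 (adjusted p = 0.0112 over all kept probe sets). Mutant replicate 1 was lowest and mutant replicate 3 highest in Bhmt and in both probe sets of Bhmt2. An s_at probe set can also bind transcripts of similar sequence, and its share of signal from other transcripts was not tested.

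Neither treatment nor antibiotics gave a call for Bhmt2. Treated minus untreated wild type was -0.09 ± 0.14 in 1418914_s_at (adjusted p = 0.596) and 0.22 ± 0.14 in 1418913_at (adjusted p = 0.185), of opposite sign. The antibiotic group differed from treated wild type by -0.09 ± 0.13 (adjusted p = 0.696, interval -0.37 to 0.19). Against untreated wild type the mutant was called lower in 1418914_s_at (-0.38 ± 0.14, adjusted p = 0.0312). That call was lost without mutant replicate 1 (-0.27, adjusted p = 0.088), without mutant replicate 4 or without untreated replicate 1 or 3. It was also lost when only these groups were fitted (adjusted p = 0.0737) and with the mean of the probe sets (-0.33, adjusted p = 0.0538). In 1418913_at the mutant overlapped untreated wild type and was not called (-0.27 ± 0.14, adjusted p = 0.121).

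**Figure D3:**
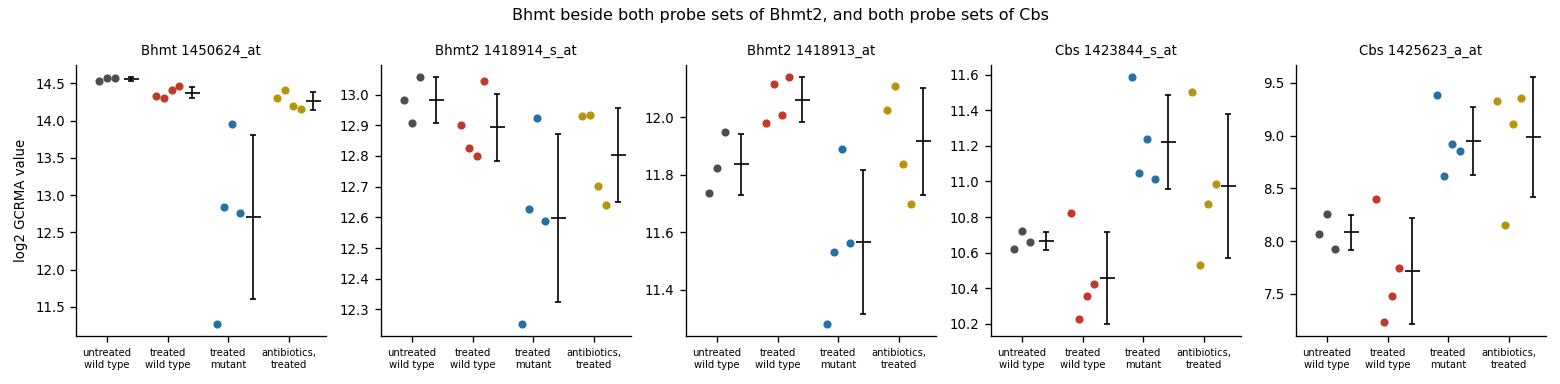
Log2 GCRMA value of each array (points) with group mean and SD for the probe set of Bhmt, both of Bhmt2 and both of Cbs; y ranges differ and do not start at 0. The mutant arrays of Bhmt and Bhmt2 share their lowest and highest replicate, and both probe sets of Cbs place every mutant array above every treated wild-type array.

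Cbs, which condenses homocysteine with serine to cystathionine and so commits it to cysteine, was higher in the mutant in both of its probe sets. In 1423844_s_at, which stands for the gene, untreated arrays read 10.62, 10.72 and 10.66 and treated wild-type arrays 10.82, 10.23, 10.35 and 10.42. Mutant arrays read 11.59, 11.05, 11.24 and 11.02, above every untreated and treated wild-type array. The mutant difference from treated wild type was 0.76 ± 0.19 (adjusted p = 0.00748), a 1.70-fold higher level. In 1425623_a_at it was 1.23 ± 0.28 (adjusted p = 0.00441), from 8.40, 7.24, 7.48 and 7.75 in treated wild type to 9.39, 8.62, 8.92 and 8.85 in the mutant. Treatment itself gave no call in wild type (-0.21 ± 0.21, adjusted p = 0.389, and -0.37 ± 0.30, adjusted p = 0.307).

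The probe sets of Cbs parted in the antibiotic group. In 1423844_s_at antibiotic arrays read 11.51, 10.53, 10.87 and 10.99 and exceeded treated wild type by 0.52 ± 0.19, which was not called (adjusted p = 0.0853). It was called without treated wild-type replicate 1 (0.64, adjusted p = 0.0485) or antibiotic replicate 2 (0.66, adjusted p = 0.0252). In 1425623_a_at they read 9.33, 8.15, 9.11 and 9.36, a difference of 1.27 ± 0.28 that was called (adjusted p = 0.0106) although antibiotic replicate 2 lay inside the treated wild-type range. The mutant was also called higher than untreated wild type in 1423844_s_at (0.55 ± 0.21, adjusted p = 0.0339), but not with each array centred on its median (0.37, adjusted p = 0.134), nor without any 1 untreated array or mutant replicate 1 or 3. In 1425623_a_at the mutant was called higher than untreated wild type without overlap (0.86 ± 0.30, adjusted p = 0.0265). The antibiotic group was called higher than untreated wild type in 1425623_a_at, with overlap (0.90 ± 0.30, adjusted p = 0.0191). It was not called in 1423844_s_at (0.31 ± 0.21, adjusted p = 0.215).

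Cth, which splits cystathionine to release cysteine, was lower in all treated groups. Untreated arrays read 13.90, 13.94 and 13.88, treated wild-type arrays 13.50, 13.23, 13.21 and 13.74, mutant arrays 13.10, 12.87, 13.37 and 13.37 and antibiotic arrays 13.64, 13.40, 12.87 and 13.27. No treated array reached the lowest untreated one. Treated wild type fell by 0.49 ± 0.18 (adjusted p = 0.0298), a call lost without any 1 untreated array or treated wild-type replicate 2 or 3 (adjusted p up to 0.0772) and with array weights (-0.36, adjusted p = 0.0568). The mutant lay below untreated wild type by a difference of -0.73 ± 0.18 (adjusted p = 0.00367), and the antibiotic group lay at -0.61 ± 0.18 (adjusted p = 0.00976). Among the treated groups no difference was called: mutant minus treated wild type was -0.24 ± 0.17 (interval -0.60 to 0.12, adjusted p = 0.3), and antibiotic minus treated wild type -0.12 ± 0.17 (interval -0.49 to 0.24, adjusted p = 0.68).

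Cdo1, the dioxygenase that commits cysteine to taurine and sulfate, fell to 48.5% of its level in treated wild type. Untreated arrays read 12.69, 12.96 and 13.11 and treated wild-type arrays 12.02, 11.74, 11.60 and 12.14 (-1.05 ± 0.17, adjusted p = 7.4e-05). Mutant arrays, at 12.27, 12.27, 12.35 and 12.29, lay between these groups without overlapping either. Their SD of 0.04 was larger than that of 1.2% of genes. Antibiotic arrays, at 12.31, 12.19, 12.57 and 12.85, all exceeded the treated wild-type range and reached into the untreated one.

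The calls for Cdo1 in the mutant and antibiotic groups lay near the threshold. The mutant exceeded treated wild type by 0.42 ± 0.15 (adjusted p = 0.0492), and the call held in 4 of the 15 fits that left out 1 array (adjusted p up to 0.137), was lost with array weights (0.31, adjusted p = 0.112) and was lost without the filter on low values (adjusted p = 0.0626). The antibiotic group exceeded it by 0.61 ± 0.15 (adjusted p = 0.0184), a call lost without treated wild-type replicate 2 or 3 or antibiotic replicate 4 (adjusted p = 0.0519, 0.0548 and 0.0514) and with only these groups fitted (adjusted p = 0.0612). Both group means lay below untreated wild type, at -0.62 ± 0.17 for the mutant (adjusted p = 0.00583) and -0.44 ± 0.17 for the antibiotic group (adjusted p = 0.0336). The antibiotic call was lost without untreated replicate 2 or 3 or antibiotic replicate 1 or 2 (adjusted p up to 0.138).

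Csad, the decarboxylase that makes hypotaurine, changed most of all the genes described. Its values were 10.00, 10.08 and 10.32 on untreated arrays and 4.54, 5.31, 5.19 and 4.66 on treated wild-type arrays. The means of 10.13 ± 0.16 and 4.92 ± 0.38 differ by -5.21 ± 0.58 (adjusted p = 2.67e-06), 37.0-fold, and treated wild type kept 2.70% of the untreated level. Of all the other genes, 8 had a lower difference. The treated wild-type values lay above but near 4, the level taken as close to background. They also enter the difference known beforehand, so the p of this fall is not free of the choice of Csad.

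Csad was much higher in the mutant than in treated wild type, and the mutant arrays varied. They read 8.91, 9.06, 6.69 and 8.06, all above treated wild type and all below untreated wild type. The difference from treated wild type was 3.26 ± 0.54, 9.55-fold, and ran from 2.96 to 3.75 with any 1 array left out; 3 genes had a higher difference. Relative to untreated wild type the mutant was at -1.95 ± 0.58 (adjusted p = 0.0112), 25.8% of the level. The mutant arrays also enter the difference known beforehand, so this p is not free of the choice of Csad either. Mutant replicate 3, which had the highest Bhmt of its group, had the lowest Csad. The SD of 1.09 was larger than that of 99.3% of genes in the mutant group.

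In the antibiotic group Csad was uneven. Antibiotic arrays read 5.90, 4.77, 5.36 and 7.52, so that replicate 2 lay inside the treated wild-type range and replicate 4 inside the mutant range. The mean of 5.89 ± 1.19 exceeded treated wild type by 0.97 ± 0.54, which was not called (adjusted p = 0.259, interval -0.19 to 2.12), and by 0.42 without replicate 4 (adjusted p = 0.628). It lay -4.24 ± 0.58 from untreated wild type (adjusted p = 2.57e-05). The antibiotic group was called lower than the mutant (-2.29 ± 0.54, adjusted p = 0.0138), though the groups overlapped and the call was lost with only these groups fitted (adjusted p = 0.0665). In the order of means from untreated over mutant and antibiotic to treated wild type, only the antibiotic and treated wild-type neighbours had no called difference; the step from treated wild type to mutant carries no p here.

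Several marker lists moved with these differences, and their part in them was not tested. In treated wild type, Csad, Gnmt, Ahcy and Cdo1 were lower and 35.9% of all genes were called higher. There 8 of 9 macrophage, 7 of 7 stellate-cell, 4 of 7 sinusoidal endothelial and 7 of 7 dividing-cell markers rose. Of the tested markers, Marco and Cd68 of the macrophages, Col1a1 of the stellate cells and 5 dividing-cell markers were under 4 on every untreated array. The 5 were Mki67, Top2a, Cdk1, Ccna2 and Birc5. All these markers passed the filter only through treated arrays, so their calls in this comparison carry no weight. In the mutant against treated wild type, Csad and Cbs were higher and Bhmt lower, and 17.6% of all genes were called lower. There 8 of 9 macrophage, 7 of 7 stellate-cell, 7 of 7 sinusoidal endothelial and 7 of 7 dividing-cell markers fell. In the antibiotic group 6 of 9, 5 of 7, 0 of 7 and 6 of 7 of these fell, where 9.01% of all genes were called lower. The hepatocyte list had 2 of 6 markers lower in treated wild type (26.7% of all genes were) and 0 of 6 called in the mutant and antibiotic comparisons. Stellate-cell markers summed to 9.76 to 11.16 on untreated, 13.33 to 13.50 on treated wild-type, 11.26 to 11.89 on mutant and 12.21 to 13.06 on antibiotic arrays. In these lists Timd4 of the macrophages, Des of the stellate cells and Pecam1 of the endothelial cells were under 4 on every array. Clec4f of the macrophages was under 4 on every mutant array and passed the filter only through the other groups. Any call of Clec4f in the mutant comparison therefore carries no weight.

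Around these enzymes stand 51 other genes of the same pathways in 7 lists, of which 46 were tested. In treated against untreated wild type 14 were called higher and 22 lower, with a median difference of -0.31; 35.9% and 26.7% of all genes were. In the mutant against treated wild type 7 were higher and 7 lower (median -0.07), where 13.2% and 17.6% of all genes were. In the antibiotic group 4 were higher and 1 lower (median -0.03), where 4.95% and 9.01% of all genes were. Nothing about the lists is read from the mutant and antibiotic counts. Mtr, which is in each of these counts and is the 1 lower gene in the antibiotic group, passed the filter only through the 4 treated wild-type arrays, so its calls carry no weight. Ada, called higher in treated wild type, passed only through treated arrays, so that call carries no weight either. The same holds for Slc25a48, called lower there, which passed only through untreated and mutant arrays. The genes named from the lists were, with some exceptions, called in at least 1 of these comparisons with a log2 difference of 1 or more in size. At most 4 from a list were named by this rule. Mmachc, Mmadhc and Slc25a48 are named without meeting it. Ahcyl1, Ahcyl2, Adk, Ado and Slc6a6 do not meet it either and are named after their values were seen.

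Of the 7 genes that supply and use betaine, 6 were called lower and 0 higher in treated wild type (26.7% and 35.9% of all genes were). Among the 6, Slc25a48 reached 4 on only 2 untreated and 2 mutant arrays. It passed the filter only through those arrays, so its call in this comparison carries no weight. Sardh, which breaks down the sarcosine that Gnmt makes, went from 10.84 ± 0.04 to 8.31 ± 0.36 (-2.53 ± 0.25, adjusted p = 9.73e-07). Slc6a12, a betaine transporter, went from 7.74 ± 0.13 to 5.40 ± 0.26 (-2.35 ± 0.18, adjusted p = 5.96e-08). Aldh7a1, which oxidises betaine aldehyde, and Dmgdh, which takes up the dimethylglycine that Bhmt releases, had differences of -1.12 ± 0.15 and -1.01 ± 0.12 (adjusted p = 1.53e-05 and 6.21e-06). In the mutant none of these 4 was called against treated wild type, and in the antibiotic group Slc6a12 was higher (0.76 ± 0.17, adjusted p = 0.00949).

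In the folate route of remethylation 2 of 4 tested genes were called higher and 0 lower in treated wild type (35.9% and 26.7% of all genes were). The 2 were Mtrr and Mtr, and the call of Mtr carries no weight, so nothing is read from this count. Mtrr, the reductase that keeps methionine synthase active, rose from 5.81 ± 0.08 to 6.95 ± 0.14 (1.14 ± 0.17, adjusted p = 3.13e-05). Mmachc and Mmadhc, which process the cobalamin cofactor, were not called (0.07 ± 0.27 and 0.25 ± 0.11, adjusted p = 0.841 and 0.0538). Mtr, methionine synthase itself, stood at 4.38 ± 0.24 in treated wild type and under 4 on every untreated, mutant and antibiotic array, at least 1.30-fold lower with those arrays set to 4; as the gene was kept only through the group where it is high, no test is given.

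Of 8 tested methyltransferases that draw on S-adenosylmethionine, 3 rose and 4 fell in treated wild type (35.9% and 26.7% of all genes did). Inmt, an amine N-methyltransferase, went from 12.91 ± 0.32 to 8.31 ± 0.78 (-4.60 ± 0.58, adjusted p = 8.97e-06). Nnmt, which methylates nicotinamide, went from 5.72 ± 0.48 to 9.85 ± 1.69 (4.13 ± 0.98, adjusted p = 0.00198). Pemt, which builds phosphatidylcholine and is a major user of methyl groups in liver, fell by 1.50 ± 0.26 (adjusted p = 0.000183) and was higher in the mutant than in treated wild type by 0.91 ± 0.24 (adjusted p = 0.0112). Gamt, of creatine synthesis, fell by 1.33 ± 0.40 (adjusted p = 0.0104). Another list held 5 genes that act on S-adenosylmethionine synthesis, on Ahcy or on the adenosine that it releases. In treated wild type 1 of them, Ada, rose and 3 fell (35.9% and 26.7% of all genes did). Ahcyl2, a relative of Ahcy, differed by -0.74 ± 0.23 (adjusted p = 0.0114, or 0.082 without untreated replicate 1). Ahcyl1 and Adk, adenosine kinase, differed by -0.28 ± 0.10 and -0.33 ± 0.11 (adjusted p = 0.0214 and 0.0189), and both calls were lost without some of the single arrays (adjusted p up to 0.116 and 0.0745). These 3 are named after their values were seen. Ada, adenosine deaminase, was under 4 on every untreated array. It was at least 1.97-fold higher in treated wild type with those arrays set to 4. As Ada passed the filter only through treated arrays, no test is given for this difference. Against treated wild type Ada differed by -0.93 ± 0.22 in the mutant (adjusted p = 0.00482).

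Of 8 tested genes of polyamine synthesis and methionine salvage, 5 rose and 2 fell in treated wild type (35.9% and 26.7% of all genes did). Srm, spermidine synthase, rose by 1.50 ± 0.22 (adjusted p = 3.48e-05) and Enoph1, of the salvage route, by 1.05 ± 0.18 (adjusted p = 0.000174). Adi1, a later enzyme of the same route, fell by 1.32 ± 0.20 (adjusted p = 4.03e-05) and was higher in the mutant than in treated wild type by 1.03 ± 0.18 (adjusted p = 0.000758). Members of this salvage route thus did not move one way.

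Among 9 genes of cysteine use and sulfide oxidation, 2 rose and 4 fell in treated wild type (35.9% and 26.7% of all genes did). Suox, which oxidises sulfite, went from 9.80 ± 0.08 to 7.29 ± 0.10 (-2.51 ± 0.13, adjusted p = 2.02e-09). Against treated wild type it was higher in the mutant (0.70 ± 0.12, adjusted p = 0.000825) and in the antibiotic group (0.44 ± 0.12, adjusted p = 0.0293). The antibiotic call was lost without treated wild-type replicate 2, 3 or 4 or antibiotic replicate 1 or 4 (adjusted p up to 0.0879). The glutathione genes parted: Gclm, the modifier subunit of glutamate-cysteine ligase, fell by 1.01 ± 0.15 (adjusted p = 4.79e-05), and Gss, glutathione synthetase, rose by 1.00 ± 0.16 (adjusted p = 6.84e-05).

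Of 5 tested genes that supply, move or use taurine, 3 fell and 1 rose in treated wild type (26.7% and 35.9% of all genes did). The 1 that rose was Ado, which makes hypotaurine by another route (0.72 ± 0.15, adjusted p = 0.000927). It was named after its values were seen. Against treated wild type 2 were higher in each of the mutant and antibiotic groups (13.2% and 4.95% of all genes were). Baat, which joins taurine to bile acids, fell by 1.21 ± 0.20 in treated wild type (adjusted p = 0.000131). Slc6a13, a transporter of taurine and GABA in hepatocytes, fell by 1.15 ± 0.15 (adjusted p = 1.1e-05) and lay above treated wild type by 0.65 ± 0.14 in the mutant (adjusted p = 0.00268) and 0.55 ± 0.14 in the antibiotic group (adjusted p = 0.0176, or up to 0.0524 without antibiotic replicate 1 or 4). Slc6a6, the main taurine transporter, was named after its values were seen: it stood at 10.86 ± 0.09, 10.23 ± 0.09, 11.08 ± 0.25 and 10.72 ± 0.31 in untreated, treated wild-type, mutant and antibiotic livers. Its differences were -0.63 ± 0.16 with treatment (adjusted p = 0.00347), 0.85 ± 0.15 in the mutant (adjusted p = 0.000739) and 0.49 ± 0.15 in the antibiotic group (adjusted p = 0.0428). The antibiotic call for Slc6a6 held in 4 of the 15 fits that left out 1 array (adjusted p up to 0.116).

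**Figure D4:**
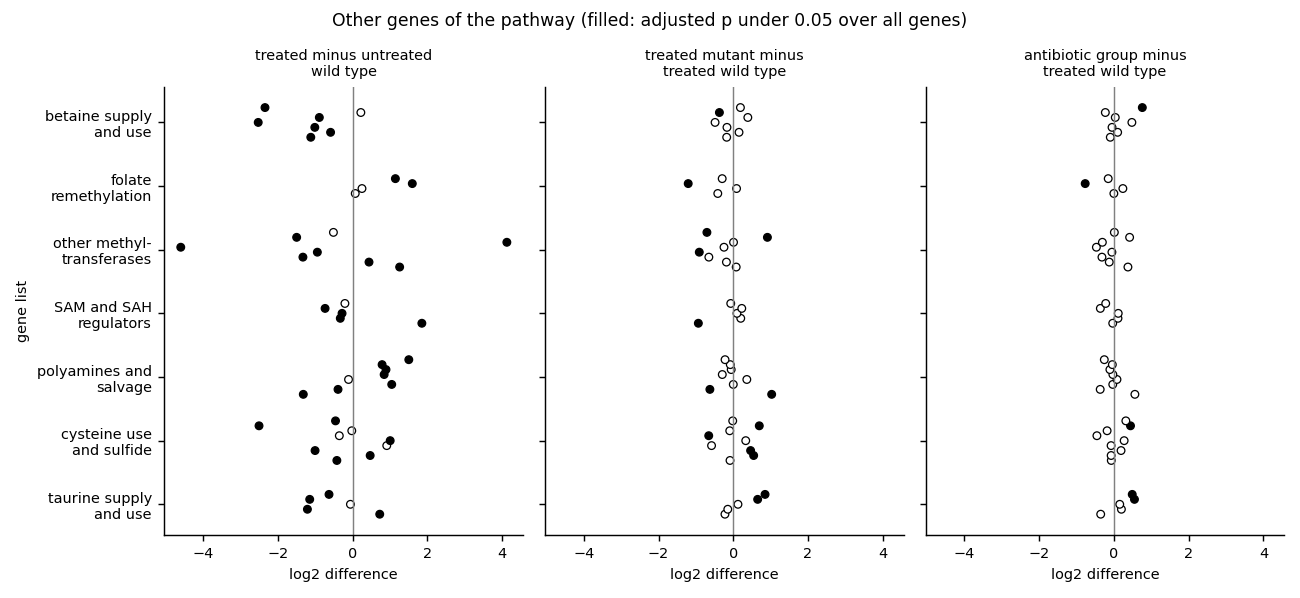
Log2 difference between group means (x axis) of each of the 46 tested genes in 7 pathway lists (rows) in 3 comparisons, with filled points where the adjusted p over all 9482 genes was under 0.05. In treated against untreated wild type 6 of 7 betaine genes lay below 0 as filled points (26.7% of all genes were called lower). The filled points of Slc25a48, Mtr and Ada in this comparison carry no weight. The points farthest out were Inmt at -4.60 and Nnmt at 4.13.

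The genes whose profiles over the 15 arrays lay closest to those of Csad, Gnmt and Bhmt were found by the root mean square distance after centring each profile on its own mean. As they were chosen by closeness on these arrays, a shared order of the groups follows from the choice and carries no weight. For Csad they were Macrod1 (0.645 log2 units), Dnase2a (0.784) and Tcp11l2 (0.874). Macrod1 stood at 8.22 ± 0.20, 3.19 ± 0.31, 5.41 ± 0.76 and 4.05 ± 0.59 in untreated, treated wild-type, mutant and antibiotic livers, the same order of groups as Csad. For Gnmt they were Acadsb (0.298), Ocel1 (0.301) and Cyp4f15 (0.302), and Acadsb had means of 11.22 ± 0.03, 9.05 ± 0.26, 9.65 ± 0.24 and 9.22 ± 0.23. For Bhmt they were Mterf2 (0.36), Ces2e (0.384) and Aspa (0.392). Each of these 3 was lowest in the mutant, where Ces2e stood at 9.32 ± 0.68 against 10.45 ± 0.12, 10.55 ± 0.17 and 10.33 ± 0.36 in the untreated, treated and antibiotic wild-type groups.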

How the data were processed

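The authors deposited 1 table of log2 GCRMA values for 15 mouse liver arrays, with GCRMA named per the submitters' processing notes and no version given in the sources used here. GCRMA corrects background by probe composition, so low values are its least certain ones; arrays have no read depth, and the number of arrays limits the precision. Probe sets were named from the array annotation (34945 had 1 symbol, 932 several and 9160 none). Those at 4 or above on at least 3 arrays were kept (15541), and the one with the highest mean stood for its gene. limma 3.58.1 in R 4.3.3 fitted 4 group means, with empirical Bayes variances and Benjamini-Hochberg adjustment; it was tested on simulated data. Other probe sets of a gene take their p from a fit of every kept probe set. The members and lists were chosen with earlier results of these data known. From the lists, genes called with a log2 difference of at least 1 are named, at most 4 a list, apart from the exceptions given above. The alternatives tried were other scalings, floors, filters, probe set rules, array weights, priors, thresholds, a fit of only the groups compared and leaving out each array. A description in the labels that gives other ages and a liver resection goes against the other labels and was not used; 1 mutant mouse has no sex label and the others are male.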

Additional observations from a re-analysis of the deposited data

Results flagged for a closer look

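Mat1a read 12.12 on treated wild-type replicate 3, whereas the other 3 treated wild-type arrays read 12.74, 12.76 and 12.86, a gap of 0.831 of the whole range of the group. It was the only such array among the 33 groups of 4 arrays examined for the 11 probe sets, and chance sets apart about 1 group in 20. The fall of Mat1a in treated wild type was -0.61 with this array and -0.44 without it (adjusted p = 0.0612 in limma).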

How the results depend on the processing

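No called difference of the 9 measured genes changed sign under the alternatives run. Of their differences, 1328 kept their direction and side of the threshold, 56 lost a call, 15 gained one and 5 uncalled ones (of Bhmt2, Cth and Mat1a) changed sign. With any 1 array left out, the genes called in treated against untreated wild type ran from 4 to 6 lower, in the mutant against treated wild type from 2 to 4 higher and from 1 to 2 lower (2 without mutant replicate 3), and in the antibiotic group against treated wild type from 0 to 2 higher (0 without treated wild-type replicate 2 or 3 or antibiotic replicate 4, and 2 without treated wild-type replicate 1 or antibiotic replicate 2). Against untreated wild type, the mutant had 0 to 1 higher (0 without any untreated array or mutant replicate 1 or 3) and 6 to 7 lower, and the antibiotic group 4 to 5 lower; the antibiotic group had 1 to 2 higher than the mutant (2 without mutant replicate 3 or antibiotic replicate 3) and 1 lower. Averaging the probe sets of a gene, or array weights, gave 2 lower in the mutant and 2 higher in the antibiotic group against treated wild type, and the average gave 1 higher in the antibiotic group against untreated wild type. Fitting only the groups compared, or a threshold of 0.01, gave 0 higher in the antibiotic group against treated wild type, and 0 higher and 0 lower against the mutant. Centring each array, or the threshold of 0.01, gave 0 higher in the mutant against untreated wild type. A filter at 6, or a trended robust prior, gave 2 higher in the antibiotic group against the mutant. Of the 46 pathway genes, leaving out 1 array gave 13 to 15 higher and 19 to 23 lower with treatment, 6 to 8 higher and 5 to 10 lower in the mutant, and 1 to 7 higher and 1 lower in the antibiotic group (1 without antibiotic replicate 1 or 4, 2 without treated wild-type replicate 2 or 4, and 7 without antibiotic replicate 2). In the mutant a threshold of 0.01 gave 3 lower; in the antibiotic group array weights gave 8 higher and 3 lower, only the groups compared 2 higher, the threshold of 0.01 gave 1 higher, and a filter at 6 gave 0 lower. No paired analysis was possible because the labels number the arrays through the whole series and pair none across groups. What moved these counts was not tested, and arrays that read under 4 limit what can be said of Mtr, Ada, Slc25a48 and Macrod1.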
